A study of Mus musculus with 19 samples.

Results

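The 34 genes described here encode the glutamate receptors of the mouse striatum and the scaffold proteins that hold those receptors at the postsynaptic membrane. They were taken from a fixed list of gene symbols and kept where a gene had 10 or more counts in at least 4 of the 19 mice. All 34 passed, each in all 19 mice, out of 54232 genes counted, and all 34 were among the 18521 genes tested. They fell into 4 AMPA receptor subunits, 1 delta receptor subunit, 5 kainate receptor subunits, 7 NMDA receptor subunits, 6 metabotropic receptors, 2 kainate receptor auxiliary subunits and 9 postsynaptic scaffolds.

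RNA was sequenced from the dissected striatum of 6-month-old mice on the C57/BL/6 background. The labels give 7 samples of wild type (WT), taken here as 7 mice, and 4 samples each of KI-96, of KI-571 and of KI-FL, which are knock-in models of Huntington's disease. KI-FL mice expressed full-length mutant huntingtin from the endogenous mouse Htt gene, KI-571 mice an N-terminal fragment of it, and KI-96 mice a still shorter fragment. The KI-96 and KI-571 alleles were made by CRISPR/Cas9 cutting of the HD140Q knock-in allele, which is the allele of the KI-FL mice, and the KI-96 and KI-571 mice carried theirs beside a wild type allele. Whether the sequenced KI-FL mice did so is not given in the sources used here. The KI-571 line descended from a lone founder. The question put to these genes was whether receptor and scaffold mRNA levels differed between KI and WT striatum, and between the forms of mutant huntingtin.

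The striatum receives dense glutamatergic input from the cortex and thalamus, and most of its neurons are GABAergic projection neurons whose spines carry these receptors. AMPA receptors carry the fast excitatory current, NMDA receptors pass calcium and depend on voltage, kainate receptors modulate release and excitability, and metabotropic receptors act through G proteins. PSD-95 (Dlg4), the SAPAP proteins (Dlgap genes), the Shank proteins and the Homer proteins form successive layers of the scaffold below the membrane and link ionotropic to metabotropic receptors.

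Total counts per mouse ranged from 12669809 to 26388542 (median 18202412), and they set the counting error of every level below. The summed level of 11 striatal projection neuron markers lay between 5491 and 9279 CPM (counts scaled to library size) in the 19 mice, with no marker at 0. Some libraries stood apart. Mouse 3 of KI-96 had 24.2% of its reads counted to no annotated feature against 11.1 to 15.99% in the other 18 mice. Whether these reads lay in introns or between genes is not given. Mouse 4 of KI-FL had counts in 16384 genes against 23177 to 28700 in the others. Markers of cortical neurons summed to 1095 CPM in WT mouse 3 and 449 CPM in KI-571 mouse 2, against 44.7 to 151 CPM in the other 17. Choroid plexus markers summed to 3023 to 5330 CPM in 3 mice of KI-571 and KI-FL, against 35.6 to 407 CPM in the other 16. Xist was high in 6 mice, among them all 4 KI-96 mice, 1 WT mouse and 1 KI-FL mouse, so that KI-96 had no mouse with low Xist. Sex is not in the labels, and a model with Xist as a covariate rests on the WT and the KI-FL mouse with high Xist. Htt itself was measured at 178 ± 9.80 CPM in WT (SD, n = 7), 186 ± 40.1 in KI-96, 124 ± 15.3 in KI-571 and 158 ± 17.5 in KI-FL (SD, n = 4 each). Replicates were separate samples by their labels. The study's methods give fewer mice per genotype than there are WT samples, so some WT samples may share a mouse, and for such samples the spread is technical and the p-values below are too small.

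Per length of exon, the WT striatum was led by Dlgap3, the SAPAP3 scaffold, at 150.1 ± 35.7 RPKM (reads per kilobase of exon, scaled to library size, SD, n = 7), and by the AMPA subunit Gria1 at 78.4 ± 5.56 RPKM. Dlg4 followed at 65.4 ± 8.99 RPKM, then the kainate subunit Grik5 at 52.0 ± 8.42 RPKM and Shank3 at 51.9 ± 6.52 RPKM, which lay within each other's spread. The AMPA subunit Gria2 stood at 43.6 ± 3.94 RPKM, the metabotropic receptor Grm5 at 36.5 ± 4.54 RPKM and Grin1, the obligatory NMDA subunit, at 33.96 ± 5.17 RPKM. Grm5 and Grin1 also lay within each other's spread. Altogether 24 members exceeded 10 RPKM in WT and 9 lay under 5 RPKM. The lowest was the NMDA subunit Grin3b at 0.370 ± 0.078 RPKM, and the level of Dlgap3 was 406-fold that of Grin3b. Grin2b, at 21.8 RPKM, stood well above the other glutamate-binding NMDA subunits, with Grin2c at 14.6, Grin2a at 6.19 and Grin2d at 2.96 RPKM. The order by RPKM, and the class shares below, rest on the joint length of all annotated exons of each gene. By CPM, Gria2 stood above Gria1 in WT (678 against 474) and Grin2a above Grin2c (111 against 73.6). The metabotropic receptors Grm2 and Grm8 were near the bottom of the order in WT, at 1.14 ± 1.44 and 1.01 RPKM.

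**Figure D1:**
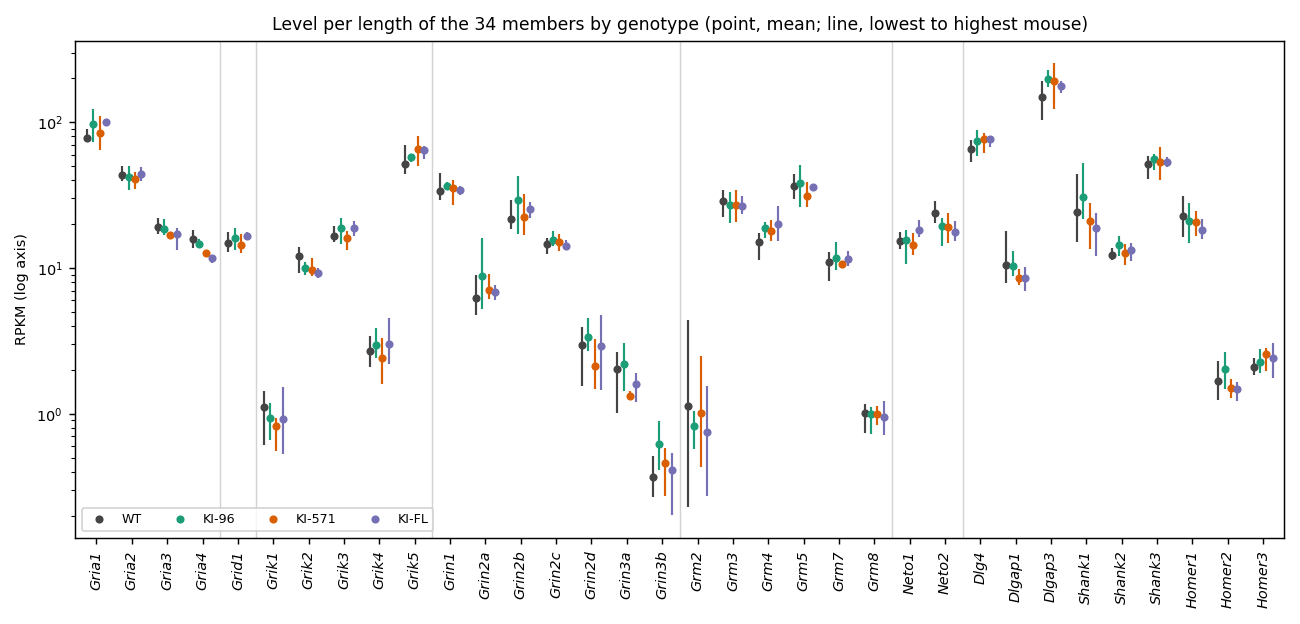
Level per exon length of the 34 members in each genotype, on a logarithmic RPKM axis, with members grouped by class along the horizontal axis. Points are group means (n = 7 WT mice and 4 of each KI genotype) and lines span the lowest to the highest mouse; Dlgap3 and Gria1 lead, and the ranges of the genotypes overlap for nearly all members.

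The ranges of each KI genotype and WT overlapped for every member but Gria4 and Gria1, and 1 of 34 members passed the test against WT. Gria4, an AMPA receptor subunit, was 0.749-fold of WT in KI-FL, a log2 fold change of -0.42 (SE 0.078, edgeR quasi-likelihood test, adjusted p = 0.0435). In this bulk tissue, fewer cells of a type and less RNA per cell cannot be told apart. No member was called in KI-96 or KI-571 by edgeR, with the p-value adjusted over all genes tested and a threshold of 0.05. In all genes, 0.027% were called in KI-96, 0.0324% in KI-571 and 0.194% in KI-FL. The same test without adjustment gave p under 0.05 for 8 members in KI-96 against 7.45% of all genes, for 5 in KI-571 against 7.72% and for 6 in KI-FL against 16.7%. With 34 members, the count in KI-FL was near this background. The KI-96 count was 4 without WT mouse 6 or without KI-96 mouse 1, 1 with Xist as a covariate (217 of all genes against 1380 in the model without it), and 0 with WT mice 1 to 4 only. It rose to 11 with cortical markers as a covariate and to 10 without WT mouse 3. The KI-571 count ran from 3 to 9 over its alternatives. By direction, 7 were higher and 1 lower in KI-96 (4.36% and 3.09% of all genes), 1 higher and 4 lower in KI-571 (3.89% and 3.83%) and 3 higher and 3 lower in KI-FL (7.89% and 8.84%). DESeq2 called 0, 1 and 2 members in the 3 genotypes, against 0.14%, 0.583% and 2.69% of all genes with an adjusted p. These comparisons share the 7 WT mice and are not independent of each other.

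In direction, 23 members had a higher mean and 11 a lower mean in KI-96, with a median log2 fold change of 0.11 against -0.02 over all genes tested. In KI-571 the split was 13 higher and 21 lower with a median of -0.07 against -0.01 over all genes, and in KI-FL it was 18 higher and 16 lower with a median of 0.01 against -0.03. The split in KI-96 leaned on 1 library, since mouse 3 of KI-96, the library with the most reads counted to no annotated feature, was the highest of all 19 mice in 10 of 34 members. Without it the KI-96 mean was higher for 18 members and lower for 16, with a median log2 fold change of 0.03, and with Xist as a covariate for 21 and for 13, with a median of 0.05. In KI-571 the split turned to 21 higher and 13 lower with a median of 0.05 against WT mice 5 to 7 only, and was 17 to 17 without WT mouse 3 or without KI-571 mouse 4, with a median of -0.01 in both. In KI-FL 15 to 20 members were higher over the alternatives. Over the 3 KI genotypes, 12 members had a mean above WT in each and 10 a mean below WT in each. The 3 comparisons share the 7 WT mice, which favours a shared direction. The share of all genes with a shared direction was not computed, so nothing is read from these counts.

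**Figure D2:**
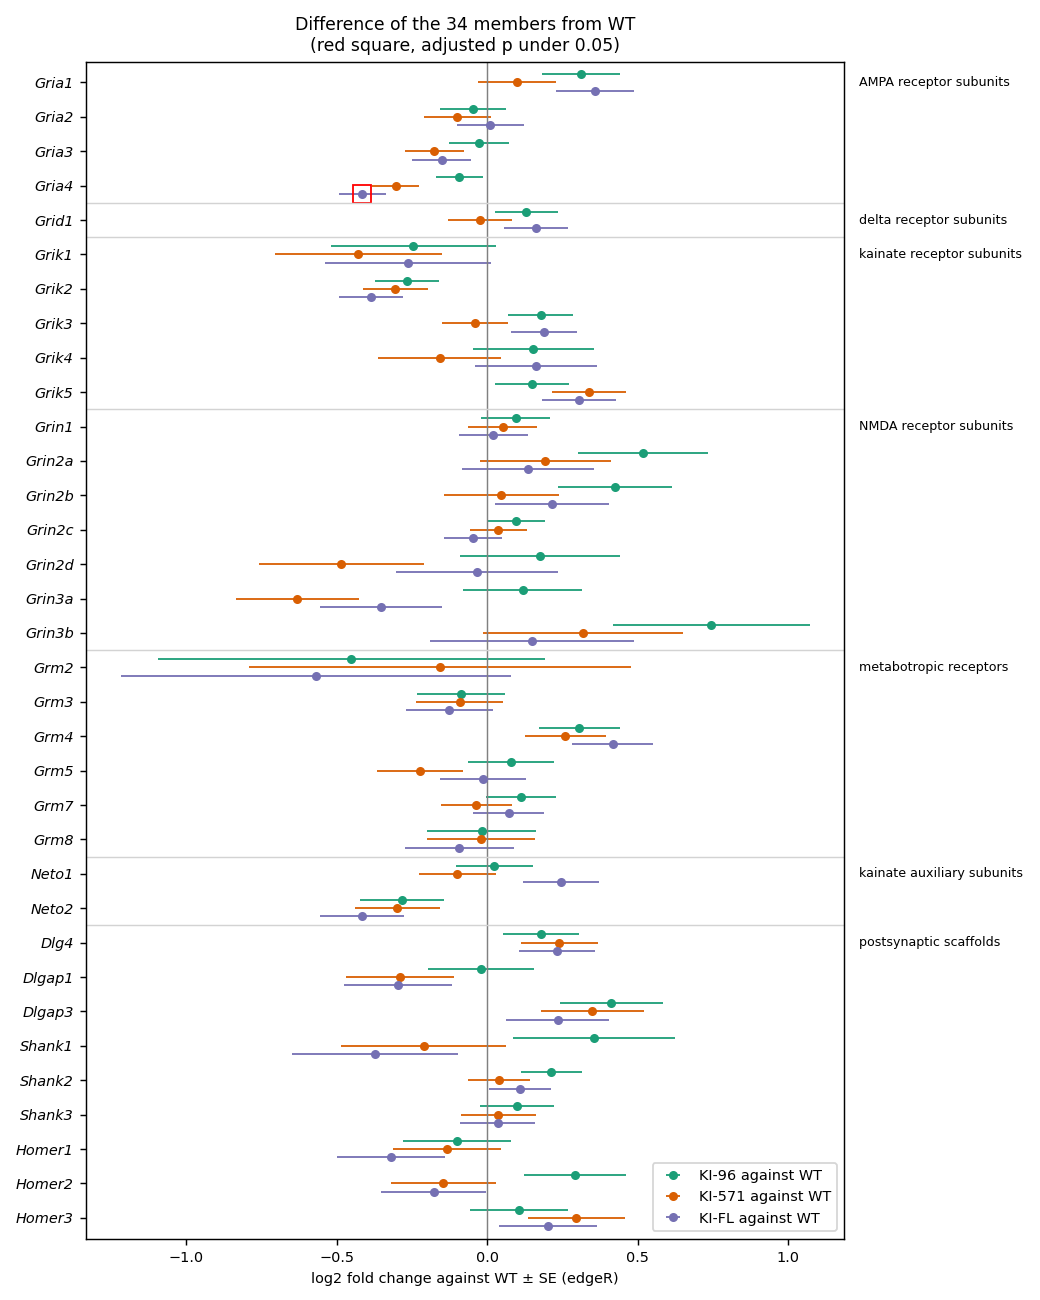
Log2 fold change of each member against WT with its standard error, from the edgeR model over all 19 mice, for KI-96, KI-571 and KI-FL. The red square marks the lone call, Gria4 in KI-FL. Grik2 and Neto2 are among the 10 members left of 0 in all 3 genotypes. Grm4, Grik5, Dlg4 and Dlgap3 are among the 12 right of 0 in all 3, and none of these named genes was called.

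Among the AMPA receptor subunits, Gria4, which gives channels with fast kinetics and is prominent in interneurons, was lowest in KI-FL. Its gene lies on the minus strand at chr9:4417896-4796234 (GRCm38). In WT its level ran from 87.0 over a median of 98.7 to 116 CPM (99.0 ± 8.49, SD, n = 7). The 4 KI-FL mice had 77.9, 73.7, 76.7 and 68.4 CPM (74.2 ± 4.23, SD, n = 4). All KI-FL mice therefore lay below all WT mice, which held in the lower direction for 2.38% of all genes. The KI-571 mice had 82.4, 74.6, 81.8 and 82.0 CPM (80.2 ± 3.75), again all below WT, as was so for 0.67% of all genes. The KI-96 mice had 89.4, 89.5, 100.1 and 92.3 CPM (92.8 ± 5.03) and overlapped WT. The KI-571 difference, a log2 fold change of -0.30 (SE 0.078), had an adjusted p of 0.170 by edgeR and of 0.0396 by DESeq2. In KI-96 the log2 fold change was -0.09 (SE 0.077) with an adjusted p of 0.820. Averaged over the 3 KI genotypes it was -0.27 (SE 0.058), with an adjusted p of 0.066 by edgeR and 0.00347 by DESeq2, which called 0.054% and 1.33% of all genes there.

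The call of Gria4 in KI-FL sat close to the threshold. DESeq2 gave it an adjusted p of 0.000254. Leaving out any of 10 mice (WT mouse 1, 4, 5, 6 or 7, KI-96 mouse 1, KI-571 mouse 3, or KI-FL mouse 2, 3 or 4) raised the edgeR adjusted p to between 0.0501 and 0.09997, while the log2 fold change stayed between -0.45 and -0.38 over all 34 alternatives run. With Xist level as a covariate the adjusted p was 0.082. Summed levels of 5 striatal interneuron markers ranged from 267 to 412 CPM in WT and from 198 to 324 CPM in KI-FL, with none of the 5 at 0, none called and none at an unadjusted p under 0.05 in KI-FL. Their part in the Gria4 result was not tested.

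None of the other AMPA subunits was called. Gria1, the AMPA subunit with the highest RPKM in this tissue, ran from 446 over a median of 461 to 539 CPM in WT. It stood at 583, 605, 609 and 631 CPM in KI-FL, at 615, 548, 748 and 442 CPM in KI-96 and at 670.0, 478, 492 and 390.0 CPM in KI-571. All KI-FL mice lay above all WT mice, as did 2.9% of all genes in that direction, while KI-96 and KI-571 overlapped WT. The KI-FL log2 fold change of Gria1 was 0.36 (SE 0.129) with an adjusted p of 0.177, so it did not pass. It had an adjusted p of 0.0282 where the model held WT and KI-FL mice only. Gria2, the subunit that makes the channel impermeable to calcium, had log2 fold changes of -0.05, -0.10 and 0.01 in KI-96, in KI-571 and in KI-FL, and Gria3 had -0.03, -0.18 and -0.15. As a share of the summed AMPA subunit RPKM, Gria4 made up 10.04 ± 0.899% in WT (8.74 to 11.3%) and 6.79 ± 0.362% in KI-FL (6.43 to 7.11%). The share of Gria1 was 50.02 ± 1.64% in WT (47.7 to 51.6%) and 58.0% in KI-FL (55.5 to 61.9%), with KI-571 spread from 46.1 to 61.4%. For both subunits the WT and KI-FL shares did not overlap. Shares of a class sum to the whole, so a higher share of Gria1 lowers that of Gria4, and these separations are not independent. How often the shares of other genes part in this way was not computed.

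**Figure D3:**
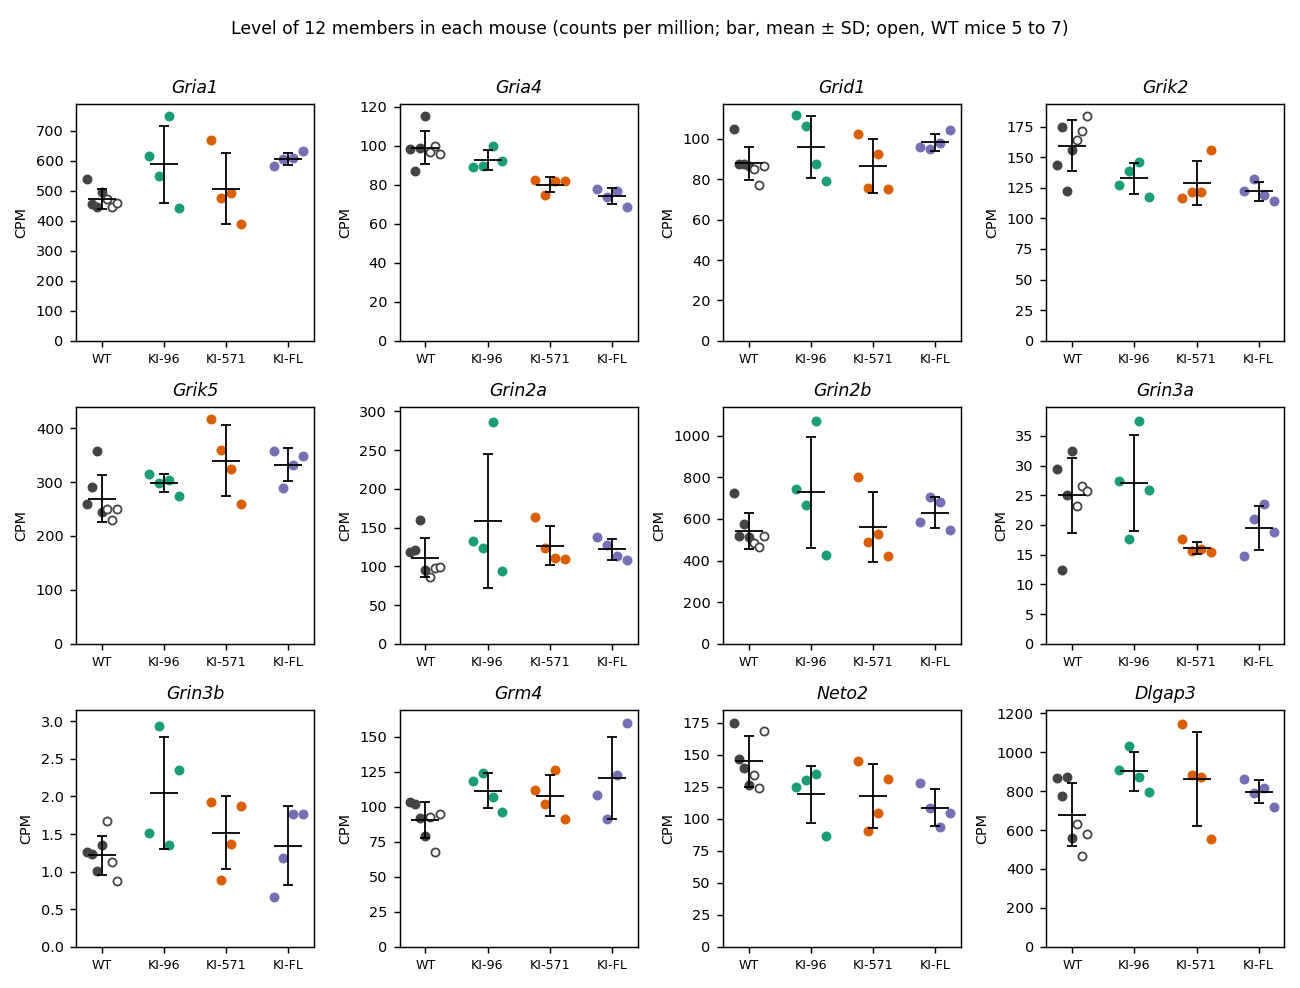
CPM of 12 members in each of the 19 mice, by genotype, each panel starting at 0, with the mean and SD as bars and WT mice 5 to 7 as open points. The KI-FL points of Gria4 (68.4 to 77.9 CPM) lie below all WT points (87.0 to 116 CPM), those of Gria1 lie above all WT points, and mouse 3 of KI-96 stands alone at the top for Grin2a and Grin2b.

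The 250 bases before the annotated start of Gria4, Grik2 and Neto2 are shown because these were the 3 members with a lower level and the smallest p in the test of the mean of the KI genotypes against WT, a choice made after the values were seen. They are RefSeq sequences of GRCm38.p6 in the direction of transcription, on the minus strand, at chr9:4796235-4796484, chr10:49788755-49789004 and chr8:85700925-85701174. The start is that of RefSeq, and the last 12 bases of the Grik2 window lie inside the gene as GENCODE annotates it. Capitals mark the motifs CCAAT and GGGCGG, which were searched with TATAAA and TGACGTCA on both strands.
Gria4: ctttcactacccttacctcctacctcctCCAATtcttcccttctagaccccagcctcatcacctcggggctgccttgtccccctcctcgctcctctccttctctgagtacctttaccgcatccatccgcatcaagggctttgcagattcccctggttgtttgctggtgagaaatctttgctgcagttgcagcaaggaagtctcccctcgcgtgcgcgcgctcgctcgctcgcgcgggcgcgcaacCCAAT
Grik2: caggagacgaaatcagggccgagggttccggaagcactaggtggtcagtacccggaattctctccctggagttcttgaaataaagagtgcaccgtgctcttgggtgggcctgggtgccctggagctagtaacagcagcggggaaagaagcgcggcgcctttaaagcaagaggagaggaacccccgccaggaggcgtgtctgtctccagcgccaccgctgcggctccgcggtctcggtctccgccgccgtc
Neto2: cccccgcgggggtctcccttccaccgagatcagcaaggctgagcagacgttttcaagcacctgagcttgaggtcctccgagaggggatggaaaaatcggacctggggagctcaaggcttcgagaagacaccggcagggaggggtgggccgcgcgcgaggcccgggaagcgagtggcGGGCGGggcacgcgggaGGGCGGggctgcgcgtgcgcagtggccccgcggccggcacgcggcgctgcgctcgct
Gria4 held CCAAT at 2 places, Neto2 held GGGCGG at 2 places, and none of the 4 motifs stood in the Grik2 window. The 3 windows had 16, 20 and 30 CpG sites and a GC content of 58.8%, 62.8% and 72.0%, in the order Gria4, Grik2, Neto2. Among all 32851 promoter windows of this length, 33.8% held CCAAT, 32.7% GGGCGG, 12.4% TATAAA and 1.55% TGACGTCA. Over the 31 windows of the 22 members that had one, the shares were 16.1%, 45.2%, 6.45% and 0%, and the median number of CpG sites was 11 against 6 over all windows. These are letter matches in a window and say nothing of binding.

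The delta receptor subunit Grid1, which binds cerebellin at synapses, ran from 77.3 over a median of 86.7 to 105 CPM in WT. It had 112, 106, 87.5 and 79.3 CPM in KI-96, 102, 75.6, 92.7 and 75.0 CPM in KI-571 and 95.8, 94.9, 97.8 and 105 CPM in KI-FL. Every KI range overlapped that of WT, in KI-FL through WT mouse 1 alone. How many of all genes overlapped through 1 mouse was not computed. The largest log2 fold change of Grid1 against WT was 0.16 in KI-FL (SE 0.105, adjusted p = 0.444).

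Within the kainate receptors, Grik2, a channel-forming subunit, had lower means in all KI genotypes. Its gene lies at chr10:49094833-49788766 on the minus strand. The WT mice ran from 122 over a median of 164 to 184 CPM (159 ± 21.05, SD, n = 7). KI-96 mice had 127, 139, 146 and 118 CPM, KI-571 mice 117, 122, 122 and 156 CPM and KI-FL mice 123, 132, 119 and 114 CPM. All 12 KI mice lay below the WT median and every KI range overlapped that of WT, in KI-FL through WT mouse 3 alone, at 122 CPM. How many of all genes behaved in either way was not computed. The log2 fold changes were -0.27 in KI-96 (SE 0.107), -0.31 in KI-571 (SE 0.107) and -0.39 in KI-FL (SE 0.107), with edgeR adjusted p of 0.639, 0.393 and 0.103. None passed. In KI-FL the adjusted p was 0.0280 by DESeq2 and 0.0494 without WT mouse 3, and for the mean of the KI genotypes the log2 fold change was -0.32 (SE 0.080) with an adjusted p of 0.098 by edgeR and 0.0272 by DESeq2. WT mouse 3 was also the mouse with the highest cortical neuron markers.

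Grik5, the high-affinity kainate subunit that needs a partner such as Grik2 to form a channel, had a higher mean in all KI genotypes, without a call. WT ran from 229.7 over a median of 251 to 358 CPM. KI-96 had 315, 299, 305 and 275 CPM, KI-571 had 417, 360.1, 324 and 259 CPM and KI-FL had 358, 289, 332 and 349 CPM. All ranges overlapped, and the highest WT value was again that of mouse 3. The log2 fold changes of Grik5 were 0.15 (SE 0.123), 0.34 (SE 0.122) and 0.30 (SE 0.123) in KI-96, in KI-571 and in KI-FL, with adjusted p of 0.816, 0.428 and 0.218. Grik1, Grik3 and Grik4 had SEs that covered most of their differences, with log2 fold changes of Grik1 of -0.25, -0.43 and -0.27, of Grik3 of 0.18, -0.04 and 0.19 and of Grik4 of 0.15, -0.16 and 0.16. The share of Grik2 in the summed kainate subunit RPKM was 14.47% in WT (8.95 to 16.98%) and 9.62% in KI-FL (8.71 to 11.3%), and the ranges overlapped.

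Neto1 and Neto2 are membrane proteins that bind kainate receptors and slow their kinetics. Neto2, at chr8:85636588-85700924 on the minus strand, ran from 124 over a median of 139.6 to 175 CPM in WT. It had 125, 130.5, 135 and 86.8 CPM in KI-96, 145, 90.6, 104 and 131 CPM in KI-571 and 128, 108, 93.5 and 104 CPM in KI-FL. All KI mice but mouse 1 of KI-571 lay below the WT median, and each KI range overlapped that of WT. The share of all genes with such a position against the WT median was not computed. The log2 fold changes of Neto2 were -0.28 (SE 0.140), -0.30 (SE 0.140) and -0.42 (SE 0.141), with adjusted p of 0.679, 0.619 and 0.155, and the mean over the KI genotypes was -0.33 with an adjusted p of 0.182. Neto1 had 152, 141, 135 and 179 CPM in KI-FL against 113 to 148 CPM in WT with a median of 131, a log2 fold change of 0.24. Neto2 made up 60.5 ± 2.79% of the summed Neto RPKM in WT (56.8 to 64.1%), 55.6% in KI-96 (54.2 to 57.0%) and 49.3 ± 3.98% in KI-FL (44.2 to 53.5%). The WT and KI-FL shares did not overlap, and those of WT and KI-96 overlapped at their edges. The share of Neto1 is the remainder, neither gene was called in KI-FL, and no background was computed for shares.

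All 7 NMDA receptor subunits had a higher mean in KI-96 than in WT, with a median log2 fold change of 0.18, against 5 higher in KI-571 (median 0.05) and 4 higher in KI-FL (median 0.02). None was called. Of all genes tested, 47.2%, 48.3% and 46.1% had a higher mean in KI-96, in KI-571 and in KI-FL. Grin2a, the subunit of mature synapses, ran from 85.8 over a median of 98.7 to 159.8 CPM in WT and had 132, 123, 286 and 93.6 CPM in KI-96. Mouse 3 of KI-96 was far above the other 18 mice, and the rest of KI-96 lay inside the WT range. The log2 fold change of Grin2a in KI-96 was 0.52 (SE 0.216, adjusted p = 0.639), and it was 0.07 without that mouse. In KI-571 Grin2a had 164, 123, 110.3 and 109.6 CPM and in KI-FL 138, 128, 114 and 108 CPM, within or close to the WT range.

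Grin2b, the leading glutamate-binding NMDA subunit of the striatum, was highest in the same mouse. It ran from 463 over a median of 516 to 724 CPM in WT and had 746, 669, 1070.5 and 425 CPM in KI-96, 804, 490.0, 525 and 421 CPM in KI-571 and 584, 703, 682 and 549 CPM in KI-FL. Each KI genotype overlapped WT. The KI-96 log2 fold change of Grin2b was 0.42 (SE 0.189, adjusted p = 0.653) and fell to 0.17 without mouse 3. Without that mouse 6 of 7 NMDA subunits had a higher mean in KI-96, the median was 0.14, and the number of NMDA subunits at an unadjusted p under 0.05 was 1 in place of 3. With all mice, 4.36% of all genes had such a p and were higher in KI-96. In either direction 1380 of all genes had one with that mouse and 1233 without it. The ratio of Grin2a to Grin2b RPKM was 0.285 ± 0.055 in WT, 0.294 in KI-96, 0.321 in KI-571 and 0.271 in KI-FL.

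The Grin3 subunits bind glycine and reduce calcium entry through the receptor. Grin3a, at chr4:49661611-49845744, ran from 12.4 over a median of 25.7 to 32.5 CPM in WT and stood at 17.6, 15.6, 15.9 and 15.4 CPM in KI-571. It had 27.4, 17.6, 37.4 and 25.9 CPM in KI-96 and 14.7, 20.98, 23.5 and 18.9 CPM in KI-FL. The KI-571 mice lay close together and below every WT mouse but mouse 2, which had 12.4 CPM. How often this held over all genes was not computed. The log2 fold change of Grin3a was -0.63 in KI-571 (SE 0.205, adjusted p = 0.333), -0.35 in KI-FL (SE 0.203, adjusted p = 0.383) and 0.12 in KI-96 (SE 0.198, adjusted p = 0.931). Grin3b, the lowest member, ran from 0.878 over a median of 1.23 to 1.68 CPM in WT and had 1.52, 2.94, 1.36 and 2.36 CPM in KI-96. It had 1.92, 0.893, 1.37 and 1.88 CPM in KI-571 and 0.664, 1.19, 1.77 and 1.76 CPM in KI-FL, and all ranges overlapped. The KI-96 log2 fold change of Grin3b was 0.74 (SE 0.327, adjusted p = 0.653). Its exons overlap those of Tmem259 on the opposite strand over 32.1% of their length, and the strand setting of the counting is not given in the sources used here, so reads of the pair may not be told apart. In all, 20 of the 34 members share exon bases with another gene. Grin1, with 13.5% of its exon length shared with Grin1os on the opposite strand, had log2 fold changes of 0.09, 0.05 and 0.02, and Grin2c had 0.10, 0.04 and -0.05.

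Among the metabotropic receptors, Grm4, which couples to Gi and sits mainly on presynaptic terminals, had a higher mean in all KI genotypes without a call. Its gene lies at chr17:27422387-27521403. WT ran from 67.7 over a median of 92.6 to 104 CPM. KI-96 had 118, 124, 107 and 96.4 CPM, KI-571 had 112, 102, 127 and 91.5 CPM and KI-FL had 108, 91.0, 123 and 159.5 CPM. In each KI genotype some mice exceeded all WT mice and others did not. The log2 fold changes of Grm4 were 0.30 (SE 0.134), 0.26 (SE 0.134) and 0.42 (SE 0.134), with edgeR adjusted p of 0.653, 0.691 and 0.145, and the mean over the KI genotypes was 0.33 with an adjusted p of 0.188. Grm5, the Gq-coupled receptor of projection neurons, had log2 fold changes of 0.08, -0.22 and -0.02. Grm3, found in neurons and astrocytes, had -0.09, -0.09 and -0.13. Summed levels of 6 astrocyte markers ran from 1177 to 1448 CPM in WT and from 1139 to 1220 CPM in KI-FL, with none at 0. At an unadjusted edgeR p under 0.05, 4 of the 6 were lower in KI-FL, against 8.84% of all genes. In KI-96 2 were lower and 1 higher (3.09% and 4.36% of all genes), and in KI-571 2 were lower (3.83%). None of the markers was called, and their part in the Grm3 level was not tested. Grm7 had 0.11, -0.04 and 0.07 and Grm8 had -0.02, -0.02 and -0.09.

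Grm2, a presynaptic receptor of cortical neurons, was high in 2 libraries. It stood at 21.4 CPM in WT mouse 3 and at 12.3 CPM in KI-571 mouse 2, the mice with the highest cortical neuron markers, and between 1.12 and 7.58 CPM in the other 17 mice. The WT mean was 5.56 ± 7.05 CPM (SD, n = 7), so the spread exceeded the mean. The KI-FL log2 fold change of Grm2, -0.57, came with an SE of 0.649. The 8 cortical markers were all above 0 in the WT, KI-96 and KI-571 mice, and 3 of them were at 0 in a KI-FL mouse. Their part in the Grm2 level was not tested.

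**Figure D4:**
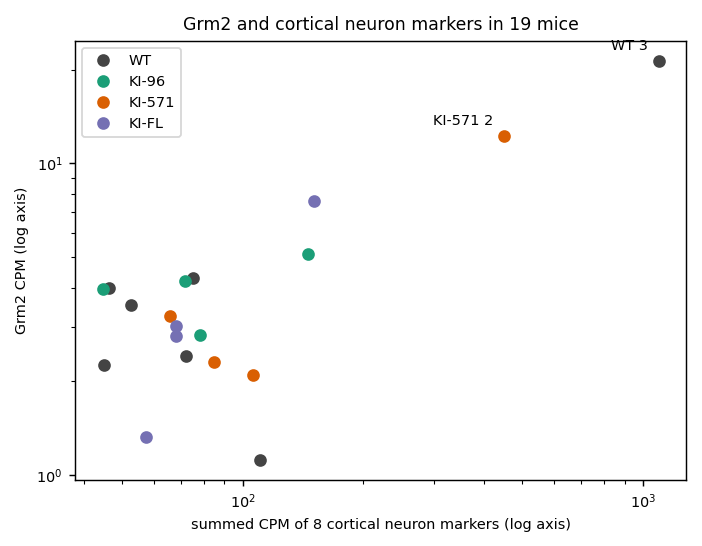
Grm2 level of each of the 19 mice (vertical, CPM, logarithmic) against the summed level of 8 cortical neuron markers (horizontal, CPM, logarithmic), coloured by genotype. WT mouse 3 and KI-571 mouse 2 stand apart at the upper right with 1095 and 449 CPM of markers, and the other 17 mice lie between 44.7 and 151 CPM.

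Of the 9 postsynaptic scaffolds, none was called, 7 had a higher mean in KI-96 (median log2 fold change 0.18), and 5 each in KI-571 (0.04) and KI-FL (0.03). Dlgap3 ran from 466 over a median of 629 to 874 CPM in WT. It had 908, 1034, 873 and 794 CPM in KI-96, 1147, 882, 871 and 555 CPM in KI-571 and 863, 790.4, 817 and 719 CPM in KI-FL. All ranges overlapped WT, and the WT mice were themselves split, with 769 ± 147 CPM in mice 1 to 4 and 557 ± 83.4 CPM in mice 5 to 7, which were sequenced more deeply. The log2 fold changes of Dlgap3 were 0.41 (SE 0.171), 0.35 (SE 0.171) and 0.23 (SE 0.172), with adjusted p of 0.639, 0.659 and 0.502. Dlg4, which encodes PSD-95, had log2 fold changes of 0.18, 0.24 and 0.23, and its unadjusted edgeR p for the mean of the KI genotypes was 0.0377. In that comparison 12.9% of all genes had an unadjusted p under 0.05, and Dlg4 was not called.

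The Shank proteins join the SAPAP proteins to Homer and the actin cytoskeleton. Shank1 had a mouse of its own in each of 2 groups, with 466 CPM in WT mouse 3 and 551 CPM in KI-96 mouse 3 against WT and KI-96 medians well below, and its log2 fold changes were 0.35, -0.21 and -0.37. Shank2 had 0.21, 0.04 and 0.11 and Shank3, whose loss disturbs striatal synapses, had 0.10, 0.04 and 0.03. Homer1, the main Homer gene here, ran from 197 over a median of 244 to 375 CPM in WT and had log2 fold changes of -0.10, -0.13 and -0.32. Its long scaffold form and its short activity-induced form are counted together. Homer2 had 0.29, -0.15 and -0.18 and Homer3 had 0.11, 0.30 and 0.20, with 25.4% of its exon length shared with Ddx49 on the opposite strand. Dlgap1 had -0.02, -0.29 and -0.30, with WT mouse 3 at 322 CPM against a WT median of 161 CPM.

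**Figure D5:**
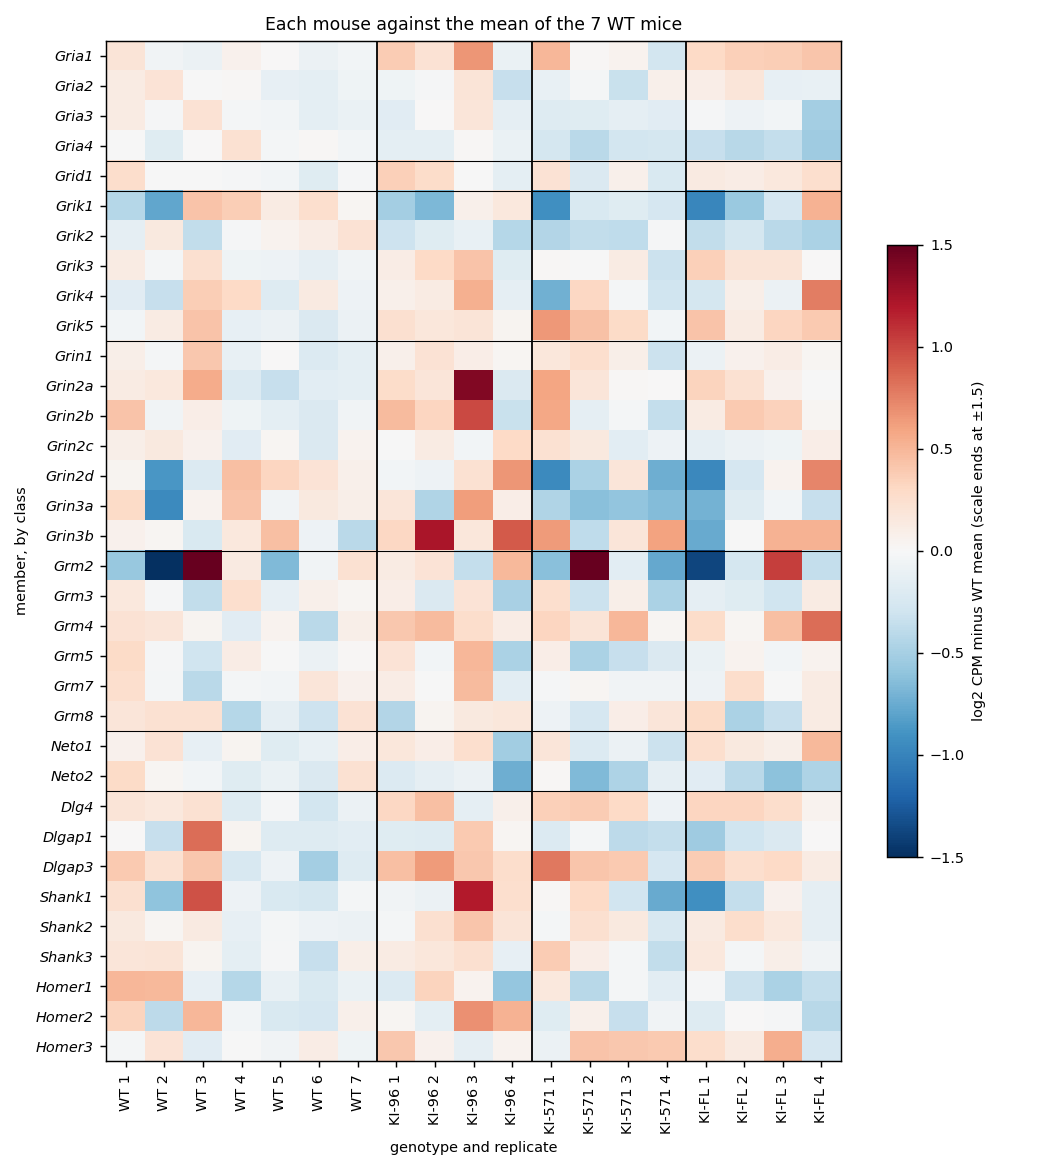
Log2 CPM of each member in each mouse minus the mean of the 7 WT mice, with members grouped by class in rows and mice by genotype in columns; red is above and blue below the WT mean, and the colour scale ends at ±1.5. The column of KI-96 mouse 3 is red over Grin2a, Grin2b and Shank1, and the row of Gria4 is blue across the KI-571 and KI-FL columns.

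By class, the AMPA subunits had median log2 fold changes of -0.04, -0.14 and -0.07 in KI-96, in KI-571 and in KI-FL, the kainate subunits 0.15, -0.16 and 0.16, and the metabotropic receptors 0.03, -0.06 and -0.05. The kainate auxiliary subunits had -0.13, -0.20 and -0.09. Each class held members on both sides of 0 in at least 1 genotype, apart from the delta class with its single subunit. In log2 CPM averaged over its members, the NMDA class stood at 5.66 ± 0.133 in WT (SD, n = 7), 5.94 ± 0.148 in KI-96, 5.59 ± 0.144 in KI-571 and 5.66 ± 0.218 in KI-FL (SD, n = 4 each). The AMPA class stood at 8.11 ± 0.073, 8.14 ± 0.179, 7.99 ± 0.073 and 8.06 ± 0.092 in the same order, and the scaffolds at 7.31 ± 0.195, 7.48 ± 0.122, 7.33 ± 0.169 and 7.28 ± 0.088. In KI-96 the NMDA class ran from 5.84 to 6.16, above the WT range of 5.43 to 5.82, while the AMPA and scaffold ranges overlapped those of WT. The NMDA gap was narrow, from 5.823 to 5.844, and no share over all genes was computed for class levels. Each subunit weighed the same in this mean, also Grin3b with 10 to 57 counts per mouse. All KI-96 mice had high Xist, and its part in the class level was not tested.

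Between the KI genotypes the comparison asked whether the length of mutant huntingtin went with a difference in these genes. No member was called by edgeR or DESeq2 in any of the 3 comparisons. For KI-96 against KI-571, encoded huntingtin length and Xist status could not be told apart. Xist ran from 886 to 1615 CPM in KI-96 and from 0.913 to 5.05 CPM in KI-571, without overlap. The Xist covariate used below therefore draws on 1 WT mouse and 1 KI-FL mouse, and does not separate the 2 in this comparison. Between KI-96 and KI-571, edgeR called 0.0054% of all genes and DESeq2 0.168%, and 4 members had an unadjusted p under 0.05, all higher in KI-96, against 3.14% of all genes in that direction. Here 30 members had a higher mean in KI-96 and 4 a lower, with a median log2 fold change of 0.15, where 49.2% of all genes were higher. Without mouse 3 of KI-96 the split was 24 to 10, the median 0.07 and the number with an unadjusted p under 0.05 was 1, and with Xist as a covariate these were 24 to 10, 0.05 and 0. Of all genes, 724 had such a p without that mouse and 288 with Xist, against 1021 with neither change. All 7 NMDA subunits were higher in KI-96 than in KI-571 with a median of 0.38, which became 6 of 7 and 0.13 without that mouse.

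Grin3a had the largest such difference, a log2 fold change of 0.75 between KI-96 and KI-571 (SE 0.227, adjusted p = 0.528), although the lowest KI-96 mouse and the highest KI-571 mouse were level at 17.6 CPM. Gria4 was higher in KI-96 than in KI-571 by 0.21 (SE 0.087, adjusted p = 0.817) and than in KI-FL by 0.32 (SE 0.087, adjusted p = 0.358 by edgeR and 0.0596 by DESeq2). In both, the mice of the groups did not overlap, as held for 1.54% and 1.91% of all genes in that direction. Between KI-571 and KI-FL the Gria4 log2 fold change was 0.11 with an adjusted p of 0.713, and the mice overlapped.

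Between KI-96 and KI-FL, edgeR called no gene at all and DESeq2 0.221% of genes, and 4 members had an unadjusted p under 0.05, all higher in KI-96, against 5.13% of all genes in that direction. There 24 members were higher in KI-96 and 10 lower, with a median log2 fold change of 0.10, where 52.7% of all genes were higher. Without mouse 3 of KI-96 the split was 20 to 14, the median 0.04 and the number with an unadjusted p under 0.05 was 1, and with Xist as a covariate the split was 21 to 13 and the number 1. Of all genes, 1251 had such a p without that mouse and 614 with Xist, against 1648 with neither change. Between KI-571 and KI-FL, where edgeR called 0.0864% and DESeq2 0.458% of all genes, 19 members were higher in KI-571 and 15 lower with a median of 0.01, where 52.8% of all genes were higher. That split turned to 12 higher and 22 lower (median -0.04) without KI-571 mouse 2, which had high cortical markers, to 14 and 20 (median -0.04) without KI-571 mouse 1, to 16 and 18 (median -0.01) without KI-FL mouse 2, and to 10 and 24 (median -0.05) with cortical markers as a covariate. The member with an unadjusted p under 0.05, where 4.23% of all genes had one and were lower, was Neto1, lower in KI-571 by a log2 fold change of -0.35 (adjusted p = 0.497).

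The neighbouring genes of glutamate signalling were read in 5 lists with 50 genes, of which 49 were tested. None was called by edgeR or DESeq2 in any comparison, and the unadjusted edgeR p was under 0.05 for 6 of the 49 in KI-96, 5 in KI-571 and 8 in KI-FL, where 7.45%, 7.72% and 16.7% of all genes passed. The share in KI-FL was that of the background, and nothing is read from the counts of the single lists, against a background of 4.36% upward and 3.09% downward in KI-96, and of 7.89% and 8.84% in KI-FL. Of 12 AMPA receptor auxiliary proteins, which set trafficking and gating, 3 were higher and 0 lower at an unadjusted p under 0.05 in KI-96, none in KI-571, and 2 higher and 1 lower in KI-FL. The smallest p of that list belonged to Cacng8, at 60.5 ± 9.49 CPM in WT (49.5 to 74.1) and 80.1 ± 10.1 CPM in KI-FL (70.0 to 91.2), with a log2 fold change of 0.41 (SE 0.125, adjusted p = 0.131). The ranges overlapped. Of 14 synaptic adhesion and pentraxin proteins, 1 was higher and 0 lower in KI-FL. It was Lrrtm3, a postsynaptic adhesion protein, which ran from 50.7 to 78.1 CPM in WT and from 79.6 to 92.7 CPM in KI-FL without overlap, as did 2.9% of all genes in that direction, with a log2 fold change of 0.43 (SE 0.123, adjusted p = 0.104).

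Of 14 partners of the postsynaptic density, 2 were higher and 1 lower in KI-FL. The lower gene, Grip2, which binds the AMPA receptor tail, stood at 24.6 ± 4.27 CPM in WT and 17.8 ± 4.504 CPM in KI-FL, with a log2 fold change of -0.46 (SE 0.163, adjusted p = 0.173) and overlapping ranges. Of 7 genes for glutamate uptake, storage and turnover, none had an unadjusted p under 0.05 in KI-96 or KI-FL, and 1 was higher and 1 lower in KI-571.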

How the data were processed

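Striatal RNA of 19 mice was sequenced. The deposited values are whole read counts, which the authors made per gene and mouse from reads trimmed with BBduk, aligned with STAR to GRCm38 and counted with HTSeq, by the study's methods and the submitters' processing notes. Versions, annotation and strand setting are not given in the sources used here. The 4 columns that the submitters ask to disregard were not used, and 5 summary rows holding 20.8 to 32.8% of reads were left out.

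Genes were filtered with filterByExpr (minimum count 10, minimum total 15), scaled by TMM and tested in 1 edgeR 4.0.16 quasi-likelihood model (R 4.3.3) over all 19 mice with genotype as the only term. P-values were adjusted by Benjamini-Hochberg over 18521 genes, with a threshold of 0.05, and all were two-sided. CPM and RPKM are TMM-scaled, and RPKM uses exon lengths of GENCODE M21. Sex and the sacrifice batch of the study's own model are not in the labels, and all 7 WT mice were kept, although the study left out 1 that it did not name. DESeq2 1.42.0, sva 3.50.0, other filters, scalings and covariates, parts of the WT group and each mouse left out in turn were alternatives. Scripts were tested on simulated data. No pair of mice in a group agreed within sampling noise.

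Members, gene lists and marker lists were chosen with earlier results of these data known. Values in every mouse are given for the called members and for the member of each class with the smallest unadjusted p over the 3 comparisons of a KI genotype with WT, filled up by the same p to 12. Levels by mouse of Grm2, Neto1 and single mice of other members were added after their values were seen. Of the lists of other glutamate genes, the gene with the smallest p was named for 3, and those of the other 2 are not reported here.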

Additional observations from a re-analysis of the deposited data

Results flagged for a closer look

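In 8 of 136 groups of mice (34 members in 4 genotypes), 1 mouse lay farther from the nearest other mouse of its group than Dixon's critical value at the 95% level allows. Chance alone gives about 1 in 20 such groups, or 6.8 of 136. All levels here are log2 CPM. Gria3 was low in mouse 4 of KI-FL, the library with the fewest genes detected, at 7.04 where the rest of that group had 7.47 to 7.53. Gria4 was low in mouse 2 of KI-571 at 6.22 against 6.36 to 6.37. Grid1 was high in WT mouse 1 at 6.71 against 6.27 to 6.45. Grik1 was low in mouse 1 of KI-571 at 1.95, from 78 counts, against 2.61 to 2.68. Grik2 was high in mouse 4 of KI-571 at 7.28 against 6.87 to 6.93. Grin3a was low in WT mouse 2 at 3.64 against 4.54 to 5.03. Dlgap1 was high in WT mouse 3, the mouse with the highest cortical neuron markers, at 8.33 against 7.14 to 7.53. Homer3 was low in mouse 1 of KI-571 at 2.78, from 141 counts, against 3.26 to 3.29.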

How the results depend on the processing

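Against WT, 0 members were called in KI-96 under all 34 alternatives run, and 0 in the 3 comparisons between KI genotypes under each alternative that could be run there. In KI-571 the count of members called was 0, but 1 with DESeq2 (Gria4). In KI-FL the main count of 1 became 2 with DESeq2 (Gria4 and Grik2) and 2 where the model held just the compared genotypes (Gria1 and Gria4), and 0 with Xist as a covariate, with 1 surrogate variable, with WT mice 1 to 4 only and with WT mice 5 to 7 only. It ranged from 0 to 2 as each mouse was left out, and was 2 without WT mouse 3. For the mean of the KI genotypes the main count of 0 became 2 with DESeq2, 2 at a threshold of 0.1 and 2 without mouse 3 of KI-96 and mouse 4 of KI-FL, and ranged from 0 to 2 as each mouse was left out. The Gria4 call in KI-FL had an adjusted p of 0.114 with 1 surrogate variable, 0.399 with WT mice 1 to 4 only (0.0279 in DESeq2) and 0.0860 with WT mice 5 to 7 only, and 0.0279 with cortical markers as a covariate. Fewer mice entered the fits on parts of the WT group. For the other settings the cause was not tested. The AMPA class level in KI-96 minus WT ranged from -0.051 to 0.094 on the log2 scale as each mouse was left out, lowest without mouse 3 and highest without mouse 4 of KI-96, and the kainate auxiliary class from -0.222 to 0.013, highest without mouse 4 of KI-96. Both class values thus changed sign, and no called difference did. As each mouse was left out, the range also crossed 0 for the delta class in KI-571 and the kainate class in KI-96 and KI-FL. It did so too for the NMDA class in KI-FL, and for the metabotropic and scaffold classes in KI-571 and KI-FL.

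Counts over all genes moved more. In KI-FL against WT 36 genes were called, against 596 with DESeq2, 336 with just those genotypes in the model, 265 at a threshold of 0.1, 90 without mouse 3 of KI-96 and mouse 4 of KI-FL, 85 without a filter, 70 with cortical markers as a covariate, 55 with a floor of 10 counts for each mouse, 8 with 1 surrogate variable and 0 with Xist or with WT mice 1 to 4 only. It ranged from 0 to 159 as each mouse was left out. Over all alternatives the count ranged from 0 to 117 in KI-571 (main 6), from 0 to 33 in KI-96 (main 5) and from 0 to 303 for the mean of the KI genotypes (main 10). Between KI genotypes it ran from 0 to 36 (KI-96 against KI-571, main 1), from 0 to 52 (KI-96 against KI-FL, main 0) and from 1 to 114 (KI-571 against KI-FL, main 16). Without a filter the median of all genes in KI-FL shifted to -0.18.

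The genotypes shared replicate numbers, but the deviations of same-numbered mice correlated at -0.13 to 0.29 over 24 pairs, 5 of them over 0.1, so the numbers were not taken as pairs. With a replicate block 0 members were called in KI-FL (Gria4 log2 fold change -0.43, adjusted p = 0.320) and 0 of all genes, and 0 members had an unadjusted p under 0.05 in KI-96 against 8 without the block. Of all genes, 541 had such a p in KI-96 with the block and 1380 without it. Counting depth limits the members with few counts, such as Grin3b and Grik1.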
